A study of Mus musculus with 9 samples.

Results

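Open chromatin was described at 9 mouse genes that detect viral RNA, pass on that signal or carry interferon beta: Ddx58, Ifih1, Dhx58, Mavs, Tbk1, Irf3, Ifnb1, Ifnar1 and Ifnar2. Every peak that overlapped the RefSeq span of one of these genes, or the 10 kb on either side of it, was taken from 4 deposited ATAC-seq peak lists. ATAC-seq marks DNA that a transposase can reach, so a peak is a stretch of open chromatin. The rule found all 9 of 9 genes among 21887 protein-coding genes, and 111 of 194768 merged regions lay at them.

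The cells were dendritic cells grown from C57Bl/6 bone marrow for 9 days in 20 ng/mL GM-CSF and transduced with retrovirus on day 2. The groups were OE, which overexpresses Pcgf6, with its control vector mi8, and HP109, which knocks Pcgf6 down by a hairpin RNA, with its control vector LMP8. All groups carried a retroviral vector and were sorted for the human CD8 reporter together with CD11c, and no stimulus besides GM-CSF is named in the labels. The overexpression vector carries a cDNA, and neither Pcgf6 RNA nor its protein was measured in these files, so the change in its level is known from the labels alone. Each vector had 2 libraries behind 1 peak list, and 1 input library served all lists, so there is no spread between replicates and no test between vectors. Neither the age and sex of the mice nor whether marrow was pooled is given in the sources used here.

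The lists held 111510 peaks for OE, 170976 for mi8, 170103 for HP109 and 140735 for LMP8. Relative depth, recovered from the lists, was 0.998 for OE over mi8 and 0.992 for HP109 over LMP8, but 0.731 for LMP8 over mi8. Start peaks were found for 10, 13, 13 and 12 of 14 dendritic cell genes in OE, mi8, HP109 and LMP8, with Ccr7, Ciita, Zbtb46 and Cd209a the 4 without one in OE. Of these, Ccr7 had one in mi8 alone and Cd209a in HP109 alone, while Ciita and Zbtb46 had one in each list but OE. All 8 of 8 macrophage genes had one in each list, and GM-CSF cultures are known to hold macrophage-like cells too. Summed over these 8 start peaks there were 459 reads in OE and 558 in mi8, and 541 in HP109 and 322 in LMP8, and over the 14 dendritic cell genes 596 in OE and 770 in mi8, and 783 in HP109 and 492 in LMP8. The macrophage genes were uneven: C1qb had 22 reads in OE and 71 in mi8 and C1qa 23 in OE and 46 in mi8, while the other 6 had ratios of 0.698 to 1.03 for OE over mi8. In the same order of lists, start peaks stood at 2, 3, 4 and 3 of 8 granulocyte genes, 4, 4, 3 and 2 of 5 plasmacytoid genes, 1, 3, 4 and 3 of 8 lymphocyte genes, 3, 4, 5 and 4 of 5 erythroid genes, and 2, 4, 3 and 2 of 6 stromal genes. Over all protein-coding genes the shares with a start peak were 57.8%, 63.8%, 63.2% and 61.7% in that order. Such counts alone thus do not show which cell types were present. In pooled cells, fewer open copies of a site and a lower share of cells that carry it cannot be told apart, and the part of other cell types in the results at the 9 genes was not tested.

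As background, RIG-I and MDA5 are cytosolic helicases that bind viral RNA and signal through MAVS on the mitochondrial membrane. MAVS activates the kinase TBK1, which phosphorylates the transcription factor IRF3, and IRF3 then switches on interferon beta together with NF-kB. Secreted interferon beta binds a receptor made of IFNAR1 and IFNAR2 and raises many of the same sensors. Pcgf6 defines PRC1.6, a repressive Polycomb complex, and the series asks how its level bears on dendritic cell activation.

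In all 4 lists, 8 of the 9 genes had a peak within 1 kb of their start, or of a gene end for Dhx58, whose strand is not in the table used. The exception was Ifnb1, which had no such peak in OE and had one in mi8, in HP109 and in LMP8. Over all protein-coding genes, 57.8% had a start peak in OE, 63.8% in mi8, 63.2% in HP109 and 61.7% in LMP8.

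The 9 genes together held 65 peaks in OE and 106 in mi8, and 104 in HP109 and 92 in LMP8. The OE list had the fewest or joint fewest peaks at every one of the 9 genes, and it is also the shortest list as a whole. Ifih1 ranged most widely, with 12 peaks in OE and 24 in mi8, and 21 in HP109 and 17 in LMP8. At Irf3, by contrast, there were 2 in OE and 3 in mi8, and HP109 and LMP8 had 2 apiece.

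**Figure D1:**
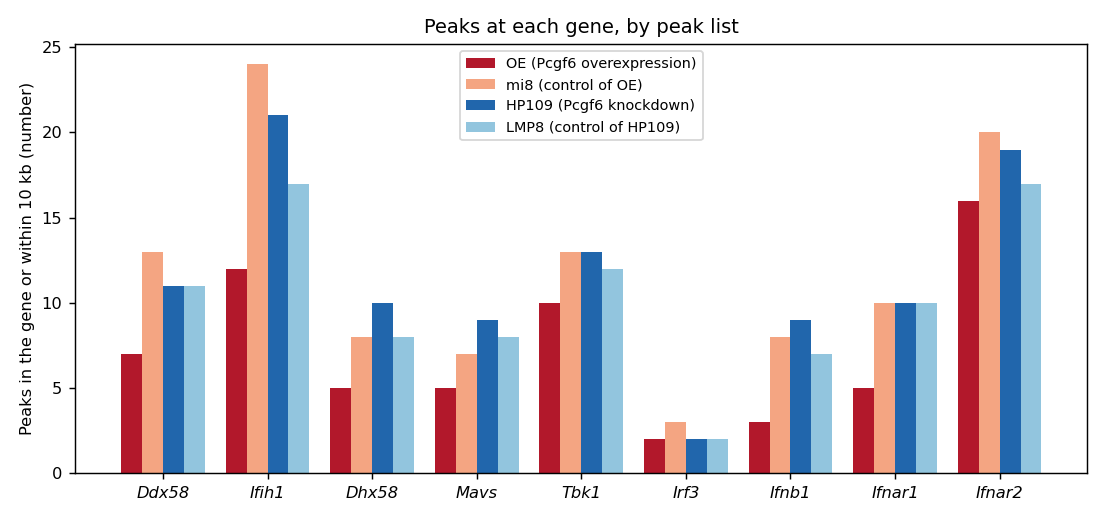
Number of peaks in each gene or within 10 kb of it (vertical axis) for each of the 9 genes (horizontal axis), with 1 bar per peak list and no replicates. OE bars are the lowest or joint lowest at each gene, from 2 at Irf3 to 16 at Ifnar2, and the tallest bar is the 24 peaks of mi8 at Ifih1.

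Of the 65 OE peaks at these genes, 0 lacked an overlapping peak in mi8, which allows a share of up to 4.62% (3 counts of 65, with an exact upper bound of 5.52%), and 44 of the 106 mi8 peaks (41.5%, exact interval 32.0 to 51.5) lacked one in OE. The background shares were 4.57% of all OE peaks and 40.2% of all mi8 peaks, so the share at the 9 genes was close to that of the whole list. Near any protein-coding gene (in its span or within 10 kb) those shares were 4.42% and 39.4%. By gene, 5 of 8 mi8 peaks lacked an OE peak at Ifnb1, 7 of 13 at Ddx58, 12 of 24 at Ifih1, 5 of 10 at Ifnar1, 3 of 8 at Dhx58, 1 of 3 at Irf3, 4 of 13 at Tbk1, 2 of 7 at Mavs and 5 of 20 at Ifnar2. Intervals are Clopper-Pearson at 95%, cover counting error only and treat neighbouring peaks as independent, which they may not be.

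For the knockdown, 15 of 104 HP109 peaks (14.4%, exact interval 8.30 to 22.7) had no counterpart in LMP8, and 5 of 92 LMP8 peaks (5.43%, exact interval 1.79 to 12.2) had none in HP109. The background was 23.9% of all HP109 peaks and 8.06% of all LMP8 peaks, and 23.7% and 7.97% near any protein-coding gene. The HP109 share at the 9 genes was thus below that of the list, whose value lies just above the interval. Among peaks with a −log10 q of 5 or more in both lists, the shares were 18.6% at the 9 genes (interval 11.0 to 28.4) and 25.7% in the whole list, and that interval covers the second share. With each list held to its 111510 strongest peaks the direction turned round, to 4 of 68 HP109 peaks absent from LMP8 (5.88%, beside 13.6% of the list) and 12 of 75 LMP8 peaks absent from HP109 (16%, beside 13.2%). The controls gave 4 of 92 LMP8 peaks absent from mi8 (4.35%, background 5.98%, or 6.12% near genes) and 22 of 106 mi8 peaks absent from LMP8 (20.8%, background 24.9%, or 24.2% near genes).

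Absence from the other list went with weak peaks. Of mi8 peaks at the 9 genes, 11 of 11 with a −log10 q under 5 and 24 of 27 from 5 to 10 had no OE counterpart, where the whole list gave 85.5% and 70.7%. From 10 to 20 it was 8 of 24 (33.3%, beside 39.0% of the list), from 20 to 40 it was 1 of 18, and at 40 or above it was 0 of 26. For HP109 peaks absent from LMP8 the counts were 7 of 18 under 5 and 7 of 23 from 5 to 10, or 38.9% and 30.4%, beside 67.1% and 45.0% of the list. The strong peaks of these genes were shared within each pair, and most of the peaks that differed had a −log10 q under 10, below the median of their list.

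**Figure D2:**
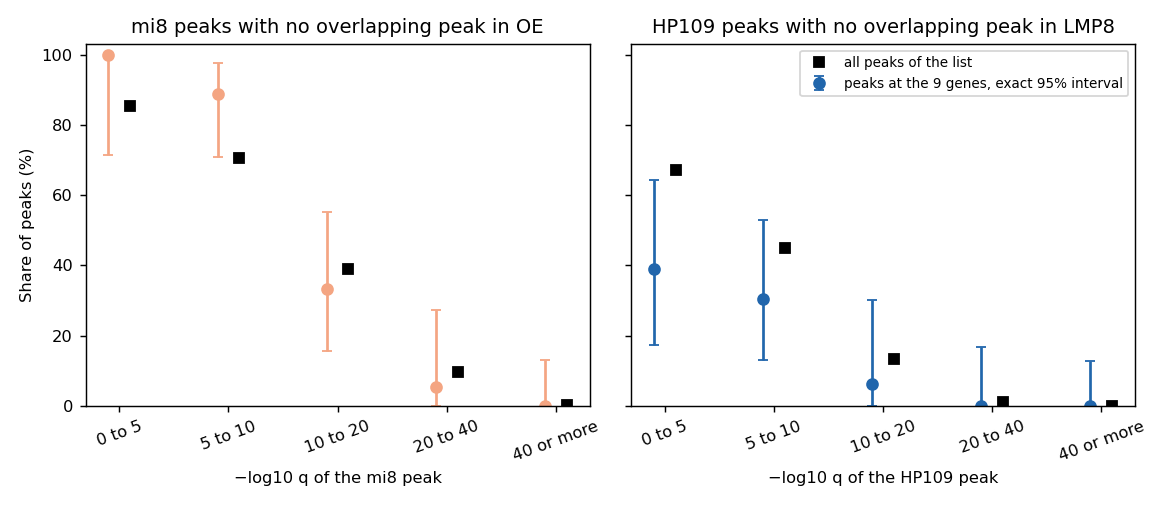
Share of peaks with no overlapping peak in the paired list (vertical axis, percent) by −log10 q of the peak (horizontal axis), for mi8 peaks absent from OE (left) and HP109 peaks absent from LMP8 (right). Circles are peaks at the 9 genes with exact 95% intervals and squares are all peaks of the list; both fall with strength, and at 40 or above 0 of 26 mi8 peaks and 0 of 27 HP109 peaks at the 9 genes were absent.

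Over the 4 lists, 58 of the 111 merged regions (52.3%) were present in every list, beside 47.1% of all regions. Regions missing from OE alone numbered 20 (18.0%, beside 14% of all regions). Another 11 regions were in mi8 alone (9.91%, beside 9.89%), 8 in mi8 and HP109 alone (7.21%, beside 7.86%) and 5 in HP109 alone (4.50%, beside 8.49%). No region at these genes was in OE alone, a state that held for 1.28% of all regions.

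The read pileup at each summit was recovered from the deposited fold and −log10 p, and depth-scaled ratios were formed for regions present in both lists of a pair. Over all 99418 regions shared by OE and mi8 the median ratio was 0.791, and over all 122194 shared by HP109 and LMP8 it was 1.40, so values at single genes are read against those shifts. Among 60 shared regions at the 9 genes the median of OE over mi8 was 0.722, and among 81 the median of HP109 over LMP8 was 1.34. A pileup at least 1.5-fold lower in OE was found at 25 of the 60 regions (41.7%, background 30.4%) and one at least 1.5-fold higher at 0 (background 2.27%). Among the 30 of these regions with 40 or more reads in either list the order was reversed, with a median of 0.862 and 23.3% at least 1.5-fold lower, beside 0.794 and 30.0% of all such regions. A pileup at least 1.5-fold higher in HP109 was found at 29 of the 81 regions (35.8%, background 38.2%) and one at least 1.5-fold lower at 0 (background 0.914%). Among the 27 of these regions with 40 or more reads in either list, the median was 1.52 and 59.3% were at least 1.5-fold higher. All such regions gave 1.53 and 54.7%, so strong regions had a higher median than the 1.40 of all shared regions. Between the controls, LMP8 over mi8 had a median of 0.856 over 81 shared regions, with 2 at least 1.5-fold higher (background 2.08%) and 11 at least 1.5-fold lower (background 9.60%).

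**Figure D3:**
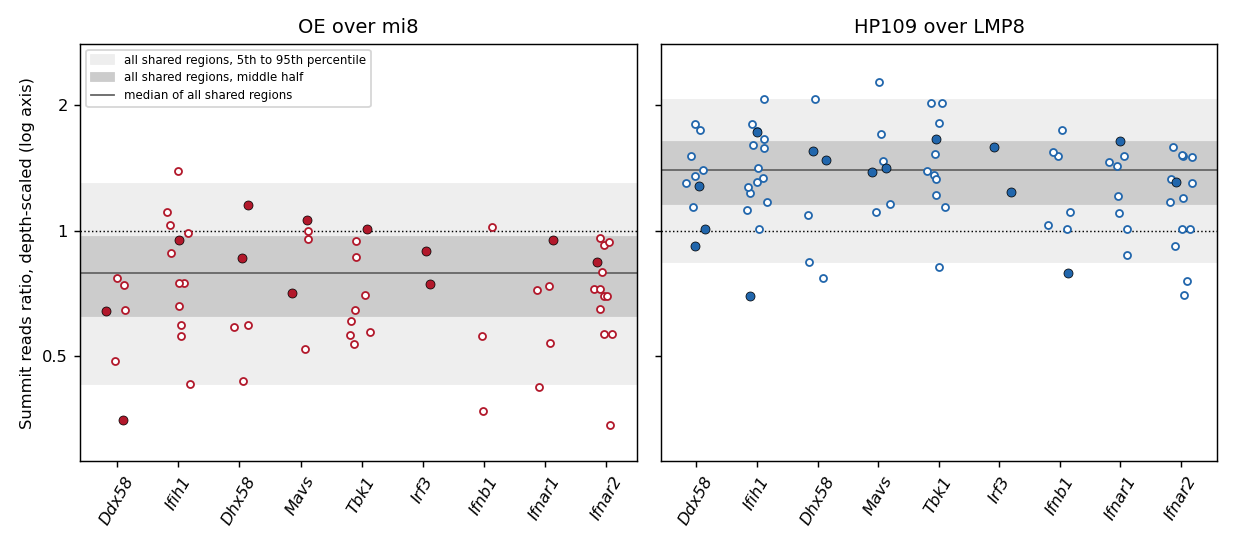
Ratio of summit reads in each region shared by a pair, scaled for depth (vertical log axis), at each of the 9 genes, for OE over mi8 (left) and HP109 over LMP8 (right). Filled points lie within 1 kb of the gene start (either end for Dhx58) and open points farther away, the dark line is the median of all shared regions (0.791 and 1.40), and the light and dark grey bands span their 5th to 95th and 25th to 75th percentiles.

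Regions were also split by position, a split made after the values were seen. Within 1 kb of the start of any gene in the promoter table, the median of OE over mi8 was 0.840 over 13 shared regions. Farther away it was 0.701 over 47. These starts include those of neighbouring genes, and Dhx58 has none in that table. Over all regions the medians were 0.862 and 0.779. In mi8, 4 of 17 start regions and 38 of 85 others had no OE counterpart (23.5% and 44.7%, beside 26.0% and 42.1% over all regions). For OE and mi8 the 9 genes thus showed the same order as all regions. For HP109 over LMP8 the order at the 9 genes was the opposite of that of all regions, with medians of 1.28 over 17 start regions and 1.36 over 64 others, beside 1.42 and 1.39. LMP8 regions with no HP109 counterpart numbered 2 of 19 at starts and 2 of 66 farther away (10.5% and 3.03%, beside 6.26% and 7.99% of all regions).

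Ddx58 encodes RIG-I, the sensor of uncapped viral RNA ends, and spans chr4:40203777-40239825 on the minus strand (mm10). At its strongest start peak, before scaling for depth, mi8 stood above the other 3 lists, with 14 reads at the summit in OE and 40 in mi8, and 18 in HP109 and 18 in LMP8. The depth of LMP8 was 0.731 of that of mi8. Exact Poisson intervals of these pileups, for counting error only, were 7.65 to 23.5 in OE and 28.6 to 54.5 in mi8, and 10.7 to 28.4 in both HP109 and LMP8. The OE over mi8 ratio of 0.351 lies below the 5th percentile of all shared regions (0.429), while HP109 over LMP8 was 1.01, under the median of 1.40.

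At the Ddx58 start OE held 2 short peaks, the stronger of which covered 106 bp (chr4:40239695-40239800). The single peak of mi8 there ran over 528 bp (chr4:40239526-40240053), that of HP109 over 523 bp and that of LMP8 over 492 bp. The strongest Ddx58 peak of every list lay elsewhere, at −4439 bp from the start, with 40 reads in OE and 54 in mi8, and 47 in HP109 and 35 in LMP8. That upstream region, with ratios of 0.742 and 1.35, stayed near the medians of all shared regions.

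Regions at Ddx58 in mi8 and not in OE with a −log10 q of 5 or more were 4, at −2.30, 9.93, 21.8 and 32.6 kb from the start. Only the one at 32.6 kb was also in both HP109 and LMP8. The region at 9.93 kb, with a −log10 q of 5.68 in HP109, had no LMP8 peak. In the first 250 bases upstream of the start, from RefSeq on GRCm38.p6 (the assembly of mm10), the capitals mark the match to the interferon regulatory factor motif AANNGAAA, shown because that match lay inside the mi8, HP109 and LMP8 start peaks and outside those of OE (chr4:40239826-40240075, minus strand, 5′ to 3′).
Ddx58: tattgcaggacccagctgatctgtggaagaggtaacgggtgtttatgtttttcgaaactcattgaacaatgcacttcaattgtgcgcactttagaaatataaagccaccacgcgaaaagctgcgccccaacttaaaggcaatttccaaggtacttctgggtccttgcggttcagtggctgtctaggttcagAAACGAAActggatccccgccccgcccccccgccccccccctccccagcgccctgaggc

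Ifih1 encodes MDA5, the sensor of long viral RNA, on the minus strand at chr2:62595618-62646255. Its start region was among the most open of the set, with 95 reads in OE and 100 in mi8, and 97 in HP109 and 57 in LMP8. The −log10 q of this peak was 117 in OE, 126 in mi8, 137 in HP109 and 65.7 in LMP8, above 99.1%, 99.7%, 99.6% and 98.4% of the peaks of the same list. OE and mi8 were alike here, with a ratio of 0.952, and HP109 over LMP8 was 1.72.

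Inside the gene, at 15.6 kb from the start, lay the region with the highest OE over mi8 ratio of the set (1.39), with 43 reads in OE and 31 in mi8, and 39 in HP109 and 19 in LMP8. The region at 10.8 kb ran the other way, with 15 reads in OE and 35 in mi8 (ratio 0.429), and 24 in HP109 and 18 in LMP8. Exact Poisson intervals at 15.6 kb, for counting error only, were 31.1 to 57.9 reads in OE and 21.1 to 44.0 in mi8. These intervals overlap, and they make no allowance for the choice of the highest of 60 ratios. The ratios of the neighbouring regions thus differed in direction, but a higher level in OE at 15.6 kb is not shown.

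Ifih1 held 9 regions in mi8 and not in OE with a −log10 q of 5 or more. Of these, 3 lay past the gene's far end, at 57.5 to 58.3 kb from the start, 4 inside the gene at 1.71, 4.33, 7.42 and 11.1 kb, and 2 upstream at −389 bp and −2.86 kb. The strongest was the one at −2.86 kb, with a −log10 q of 15.5 in mi8, 6.86 in HP109 and 4.47 in LMP8. Of the regions past the far end, those at 57.5 and 58.3 kb were also in HP109, with −log10 q 8.64 and 7.62, and not in LMP8.

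Dhx58 encodes LGP2, a helicase related to both sensors that modulates their signal, at chr11:100694884-100704271. The region at its right-hand end had 61 reads in OE and 71 in mi8, and 66 in HP109 and 45 in LMP8. A region inside the gene near that end (chr11:100702313-100703387) was as open, with 78 reads in OE and 68 in mi8, and 74 in HP109 and 48 in LMP8. The next region inwards (chr11:100701256-100701628) differed within both pairs, with 17 reads in OE and 39 in mi8, and 37 in HP109 and 18 in LMP8, which gave ratios of 0.437 and 2.07. The 5th to 95th percentiles of all shared regions were 0.429 to 1.29 and 0.840 to 2.05, around medians of 0.791 and 1.40.

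At the left-hand part of Dhx58, OE had no peak where mi8 had one at chr11:100695068-100695196 (−log10 q 10.1). HP109 had an overlapping peak (10.8) and LMP8 did not. It was the strongest HP109 region of the set with no LMP8 peak. The remaining region with a −log10 q of 5 or more in mi8 and no OE peak (5.24) lay in the neighbouring gene Zfp385c. Regions to the right of Dhx58 lay in Kat2a and Hspb9, so these windows do not describe Dhx58 alone.

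Mavs encodes the mitochondrial adaptor of both sensors, on the plus strand at chr2:131234063-131248025. Its start region had 94 reads in OE and 89 in mi8, and 89 in HP109 and 65 in LMP8. The OE over mi8 ratio of 1.06 was the highest among the start regions with a RefSeq start. HP109 over LMP8 was 1.38, close to the median of all shared regions (1.40). Shared regions with 40 or more reads in either list had a higher median, 1.53. In LMP8 this peak ranked above 99.6% of the list and in HP109 above 98.6%.

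The regions at 10.7 kb, inside Mavs, and at 20.1 kb, past its end, were equally open in OE and mi8. They had 43 and 37 reads in OE and 45 and 37 in mi8. Both were more open in HP109, with 54 and 45 reads, than in LMP8, with 32 and 20. The region past the end gave the highest HP109 over LMP8 ratio of the set (2.27), with no allowance for the choice of the highest of 81 ratios. At 5.77 kb OE was low, with 14 reads against 27 in mi8, and HP109 had 23 and LMP8 20. Only 1 region of the Mavs window in mi8 and not in OE reached a −log10 q of 5. It lay at 19.7 kb, also past the gene's end (5.87 in mi8, 9.86 in HP109 and 3.68 in LMP8).

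Tbk1 encodes the kinase that activates IRF3, on the minus strand at chr10:121546455-121586794. Its start region, which reaches into the neighbouring gene Xpot, had 91 reads in OE and 90 in mi8, and 92 in HP109 and 56 in LMP8. Scaled for depth, OE and mi8 were alike (ratio 1.01) and HP109 stood above LMP8 (1.66). Shared regions with 40 or more reads in either list had a median of 1.53 for HP109 over LMP8. LMP8 over mi8 was 0.852, near the median of 0.887 over all shared regions.

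Regions in the body of Tbk1 differed among themselves. The one at 15.1 kb had 50 reads in OE and 58 in mi8, and 35 in HP109 and 23 in LMP8, with ratios of 0.864 and 1.53 that lay near those of the start. The one at 3.56 kb had 46 reads in OE and 82 in mi8, and 72 in HP109 and 36 in LMP8. At 36.8 kb it was 32 reads in OE and 56 in mi8, and 60 in HP109 and 30 in LMP8, so that in both regions OE stood below mi8 (ratios 0.562 and 0.572) and HP109 above LMP8 (2.02 in each). The medians of all shared regions had the same directions (0.791 and 1.40). All these ratios lay between the 5th and 95th percentiles of all shared regions (0.429 to 1.29 and 0.840 to 2.05).

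The strongest region of the whole set with no OE peak also lay in Tbk1, at 22.2 kb from the start (chr10:121564525-121564728), with a −log10 q of 24.6 and 31 reads in mi8. HP109 had 17 reads there and LMP8 15. The other Tbk1 regions in mi8 and not in OE at a −log10 q of 5 or more lay at 40.5 kb, past the gene's end (6.89 in mi8 and 5.52 in HP109, with no LMP8 peak), and in Xpot (5.24 in mi8).

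Irf3 encodes the transcription factor that switches on Ifnb1, on the plus strand at chr7:44997648-45002848. Its start region is shared with Bcl2l12, whose span ends beside the Irf3 start, and had 49 reads in OE and 55 in mi8, and 54 in HP109 and 44 in LMP8. A second region at 1.11 kb had 26 reads in OE and 35 in mi8, and 30 in HP109 and 19 in LMP8. With ratios of 0.893 and 0.744 for OE over mi8, and 1.24 and 1.59 for HP109 over LMP8, both regions stayed between the 5th and 95th percentiles of all shared regions. The remaining region, at 4.98 kb, was in mi8 alone, with a −log10 q of 6.06.

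**Figure D4:**
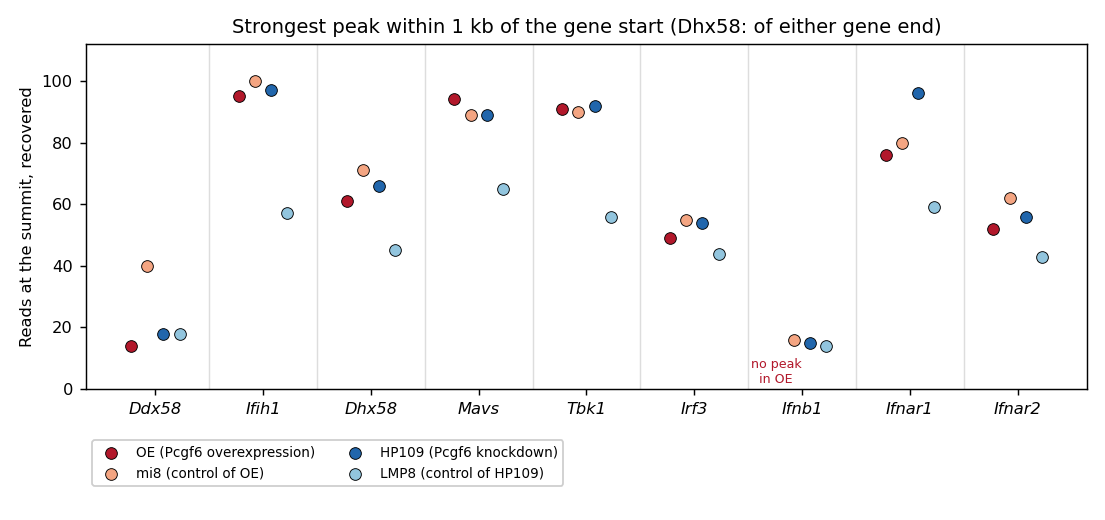
Reads at the summit of the strongest peak within 1 kb of each gene start (either end for Dhx58), with 1 point per peak list and no replicates; the vertical axis is the read pileup recovered from the deposited values. Reads are not scaled for depth. LMP8, whose depth is 0.731 of that of mi8, has the lowest called peak at each gene except Ddx58, mi8 has the most reads at Ddx58 with 40, and OE has no peak at Ifnb1.

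Ifnb1 encodes interferon beta in a gene of 0.770 kb with no intron, on the minus strand at chr4:88522025-88522794. None of the 4 lists had a peak inside the gene. OE had no peak within 1 kb of the start, and mi8 had a promoter peak from −177 to −44 bp from the start (chr4:88522838-88522971), with 16 reads and a −log10 q of 8.41. HP109 had the promoter peak at −143 to −43 bp (chr4:88522837-88522937), with 15 reads and a −log10 q of 9.69.

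LMP8 had no peak at that position. The peak that gave LMP8 its start call lay farther upstream, at −751 to −616 bp, with 14 reads and a −log10 q of 7.65, and HP109 had one over the same stretch with 11 reads (3.81). All these peaks were low: by −log10 q the promoter peak stood above 33.8% of the mi8 list and 37.3% of the HP109 list. Among all mi8 peaks with a −log10 q from 5 to 10, 70.7% had no OE counterpart, and among all such HP109 peaks 45.0% had none in LMP8. Exact Poisson intervals, for counting error only, were 8.40 to 24.7 reads in HP109 and 9.15 to 26.0 in mi8, and an uncalled position gives no read number for OE or LMP8. The lowest summit called over the background floor had 8 reads in OE, 7 in mi8, and 6 in HP109 and in LMP8.

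The promoter peak covers part of the region where IRF and NF-kB factors are known to assemble on this gene after viral infection. The 250 bases upstream of the Ifnb1 start are printed for that reason, from RefSeq on GRCm38.p6 (chr4:88522795-88523044, minus strand, 5′ to 3′), with capitals at matches to an NF-kB motif (GGGA, any 2 bases, TTCC) and to AANNGAAA.
Ifnb1: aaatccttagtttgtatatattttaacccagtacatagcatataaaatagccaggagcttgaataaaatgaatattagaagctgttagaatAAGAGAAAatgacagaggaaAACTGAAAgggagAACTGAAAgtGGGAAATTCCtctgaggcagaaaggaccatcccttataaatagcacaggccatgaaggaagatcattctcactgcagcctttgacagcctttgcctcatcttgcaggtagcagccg

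The NF-kB match GGGAAATTCC lay at −116 to −107 bp and was inside the mi8 and HP109 peaks. Of the 3 AANNGAAA matches, those at −139 to −132 and −126 to −119 bp were inside both peaks and that at −159 to −152 bp was inside the mi8 peak alone. Motifs were searched as exact letters on both strands from 250 bases before to 50 after the start of the 8 genes in the RefSeq promoter table, and AANNGAAA was added after the data were seen. The NF-kB motif was at 1 of the 8 promoters, Ifnb1, and at 1.47% of all 32851 promoters in the table. AANNGAAA was at 3, Ifih1, Ddx58 and Ifnb1, and at 23.9% of all.

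The interferon-stimulated response element (GAAA, any 2 bases, GAAA), which overlaps AANNGAAA in its letters, was at 2 of the 8 promoters and 3.44% of all. In Ifih1 it read GAAACAGAAA at 33 to 42 bp after the start, inside the start peak of all 4 lists. In Ddx58 it was on the opposite strand at 3 to 12 bp, inside the start peaks of mi8, HP109 and LMP8. The E-box CACGTG was at 1, Tbk1, and 7.15% of all, and the E2F motif GCGGGAA at 0 and 4.60% of all. These matches are letters in the reference sequence and do not show that a factor was bound.

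Away from its promoter, Ifnb1 was flanked by stronger open regions. The one at −2.87 kb had 52 reads in OE and 51 in mi8, and 64 in HP109 and 37 in LMP8. OE and mi8 were equal here (ratio 1.02), and HP109 over LMP8 was 1.74. Downstream, the region at 6.97 kb had 33 reads in OE and 59 in mi8, and 41 in HP109 and 40 in LMP8.

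The region at 8.22 kb had 14 reads in OE and 38 in mi8, and 32 in HP109 and 21 in LMP8. Its OE over mi8 ratio of 0.369 was below the 5th percentile of all shared regions (0.429), with exact Poisson intervals of 7.65 to 23.5 reads in OE and 26.9 to 52.2 in mi8. The low OE values downstream thus stood beside an upstream region where OE and mi8 did not differ. Further regions in mi8, HP109 and LMP8 without an OE peak lay at −3.82, 7.37 and 10.3 kb, the last with a −log10 q of 17.7 in mi8, 9.69 in HP109 and 4.47 in LMP8. A region at 2.89 kb was in HP109 alone (5.13).

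**Figure D5:**
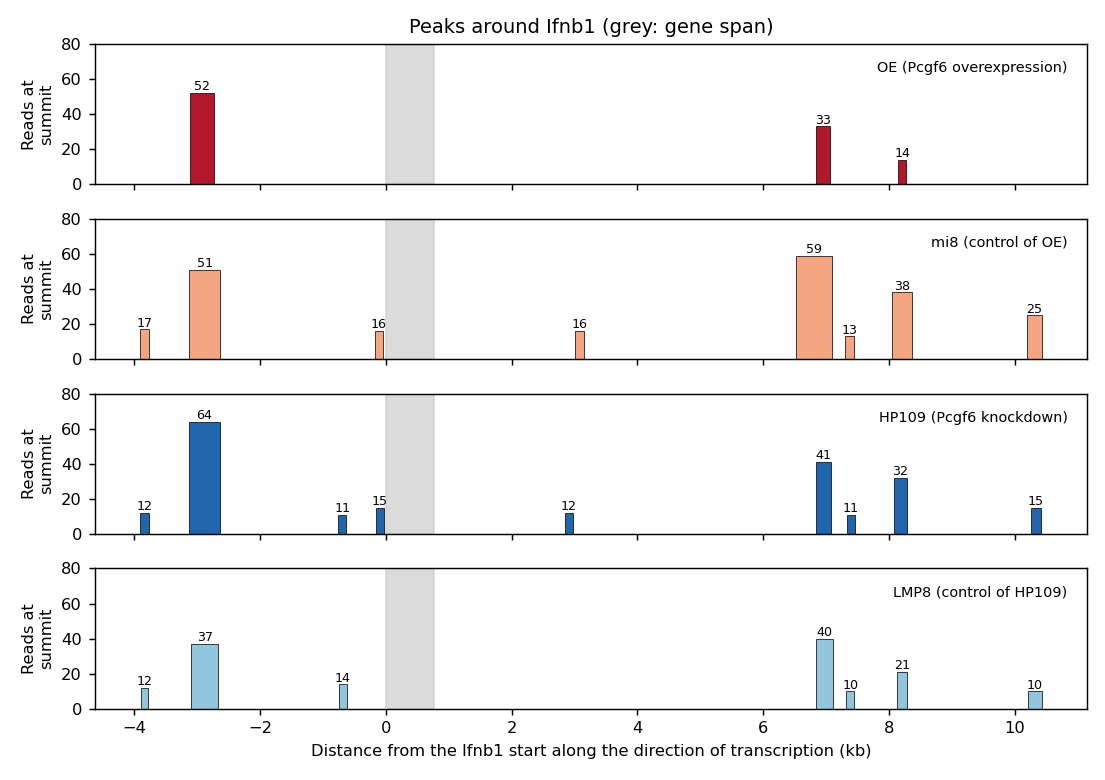
Peaks within 10 kb of Ifnb1 in each list, drawn by distance from the start along the direction of transcription (horizontal axis, kb) with the recovered summit reads as height (vertical axis, also printed above each bar); the grey band is the gene. OE holds 3 peaks, with 52, 33 and 14 reads, mi8 holds 8, HP109 9 and LMP8 7, and the peak just left of the gene is present in mi8 and HP109.

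Ifnar1 and Ifnar2 encode the subunits of the receptor for interferon beta and lie on the plus strand of chromosome 16, at chr16:91485032-91510523 and chr16:91372783-91405589. The Ifnar1 start region had 76 reads in OE and 80 in mi8, and 96 in HP109 and 59 in LMP8. HP109 had the highest value there, and the OE over mi8 ratio was 0.952. The Ifnar2 start region had 52 reads in OE and 62 in mi8, and 56 in HP109 and 43 in LMP8.

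A pair of regions upstream of Ifnar1 differed in how OE stood to mi8. At −9.28 kb there were 44 reads in OE and 60 in mi8, and 54 in HP109 and 36 in LMP8. At −8.65 kb there were 21 in OE and 50 in mi8, and 41 in HP109 and 29 in LMP8, so the ratio of OE over mi8 was 0.735 in the first and 0.421 in the second. Regions in mi8 and not in OE with a −log10 q of 5 or more lay at −6.86, −4.57 and 0.964 kb (9.35, 7.53 and 5.06), and one at 3.15 kb was in HP109 alone (5.68).

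Ifnar2 held the most peaks in OE, 16, beside 20 in mi8, and 19 in HP109 and 17 in LMP8. Its strongest region in OE, mi8 and HP109 was not the start but an internal one at 25.5 kb, with 75 reads in OE and 80 in mi8, and 83 in HP109 and 55 in LMP8. The lowest OE over mi8 ratio of all 60 regions (0.343) was also inside this gene, at chr16:91385684-91385876, with 13 reads in OE and 38 in mi8, and 27 in HP109 and 21 in LMP8. Poisson intervals there were 6.92 to 22.2 in OE and 26.9 to 52.2 in mi8, with no allowance for the choice of the lowest of 60 ratios.

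Past the end of Ifnar2 the window enters Il10rb, a subunit of the interleukin 10 receptor, and the region at their border had 53 reads in OE and 76 in mi8, and 68 in HP109 and 43 in LMP8. In mi8 and not in OE at a −log10 q of 5 or more were regions at 1.64, 20.6 and 26.4 kb in Ifnar2 (6.61, 10.3 and 14.4) and at 36.4 and 40.5 kb in Il10rb (5.87 and 11.3). Of these 5, only the one at 26.4 kb was in all of mi8, HP109 and LMP8.

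Other genes of the pathway were counted from 3 lists with 67 genes. A start peak was present at 46 of them in OE and 51 in mi8, and at 47 each in HP109 and LMP8, and 46 had it in all 4 lists. Over all protein-coding genes the shares were 57.8% in OE, 63.8% in mi8, 63.2% in HP109 and 61.7% in LMP8. The share of all genes with a start peak in all 4 lists was not counted. No gene had a start peak in OE and none in mi8 (0.146% of all genes), and 5 had one in mi8 and none in OE (6.17% of all genes). No gene differed between HP109 and LMP8 in either direction (2.22% and 0.704% of all genes). Between the controls, 0 genes had a start peak in LMP8 and none in mi8 (0.439% of all genes) and 4 were the other way round (2.54% of all genes).

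Among 30 genes of sensor signalling and interferon induction, 29 had a start peak in every list, the exception being Nlrc3 with none. No share of all genes was counted for either state. Of 17 genes of interferon receptor signalling, 16 had one in OE and 17 in each of the others. The missing gene was Ifnlr1, a receptor subunit for interferon lambda, with a −log10 q of 5.23 in mi8, 6.63 in HP109 and 8.23 in LMP8. Ifnlr1 was the only gene of the lists with the same state of start peaks as Ifnb1 over the 4 lists, a state held by 776 of all 21887 genes (3.55%). At Ifnb1 this state joins the promoter peaks of mi8 and HP109 with the LMP8 peak at −751 to −616 bp. No single region at the Ifnb1 start was in mi8, HP109 and LMP8 together.

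The 20 interferon genes were mostly closed, and 15 had no start peak in any list. Ifng, the gene of interferon gamma, had one in mi8 alone (−log10 q 10.3), as did Ifna1 (5.24), Ifna13 (3.83) and Ifna4 (2.64). OE, HP109 and LMP8 all lacked these 4 peaks, which had 9 to 18 reads in mi8. By list, 57.8% to 63.8% of all protein-coding genes were open at their start. Of all these genes, 6.17% were open there in mi8 but not OE, and 2.54% in mi8 but not LMP8. The shares open in mi8 alone or in no list were not counted. LMP8 had 0.731 of the depth of mi8, and HP109 0.992 of that of LMP8. Whether depth bears on these 4 genes was not tested. The Ifna genes are close copies of each other, and reads among them may have been shared out or dropped by the alignment. Ifnz was the only interferon gene of the list open at its start in all lists, with 26 reads in OE and 31 in mi8, and 23 in HP109 and 26 in LMP8.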

How the data were processed

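ATAC-seq was measured in 9 libraries, 2 for each of 4 vectors and 1 input. Per the submitters' processing notes, reads were processed with BWA, Picard and MACS2 on mm10; the sources used here give no versions, thresholds, read shifting or downsampling depth. The authors deposited 1 peak list per vector. Its fold column is the ratio of summit pileup to local input background, its −log10 p and −log10 q columns were deposited by the authors too, and its deposited score column (10 times the −log10 q) was not used. These are the authors' values and rank peaks within a list.

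Between 2 and 15 peaks per list lay outside the assembled nuclear chromosomes and were dropped. Pileups were recovered as whole numbers from the fold, read as (pileup + 1) over (background + 1), and a Poisson −log10 p, within 0.001 for 100% of peaks. The value of 1 input read in each list gave relative depth. Read totals are unknown. An overlap of 1 bp or more counted as shared, and regions are merged peaks of the 4 lists. Genes and starts came from RefSeq tables of GRCm38.p6 without exons. Overlap and recovery were tested on simulated data (Python 3.11.15, SciPy 1.17.1, pandas 2.3.3). The naming rule took all 9 genes, their start and strongest regions, regions in 1 list of a pair alone with −log10 q of 5 or more, and pathway genes whose start state differed within a pair. Members and lists were chosen with earlier results of these data known. Alternatives were a 5 kb flank, −log10 q of 5 or more, equal numbers of peaks, 50% overlap and leaving out peaks in other genes.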

Additional observations from a re-analysis of the deposited data

How the results depend on the processing

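Of 40 alternative values for the peak numbers and shares, 35 stayed within 1.5 times the reported count or inside the exact interval of the reported share, and 5 moved, all when each list was held to its 111510 strongest peaks. Under that setting the peaks at the 9 genes numbered 68 in HP109, the share of mi8 peaks absent from OE was 15.5% (19.4% of all mi8 peaks), that of HP109 peaks absent from LMP8 was 5.88% (13.6% of all), that of LMP8 peaks absent from HP109 was 16% (13.2% of all), and regions in all 4 lists made up 63.9%. The alternative removes the weakest peaks of the 3 longer lists, and with it the direction between HP109 and LMP8 turned round, with 4 of 68 and 12 of 75 peaks absent from the other. The alternative that leaves out peaks in other genes was chosen after seeing the data. No paired analysis was possible because each vector has 1 list for both libraries, and for the same reason no library could be left out. Depth limits the Ifnb1 promoter result: its peaks hold 15 and 16 reads, and positions without a call give no read number.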
